A study of Rattus norvegicus with 6 samples.

Results

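Genes of protein folding in the endoplasmic reticulum (ER), 10 in number, were measured in whole rat hearts. They were the transcription factor gene Xbp1 and Hspa5, Herpud1, Dnajb9, Hsp90b1, Pdia4, Calr, Sdf2l1, Creld2 and Manf. Members were the non-control probes that the array files name for one of these 10 genes, which gave 11 probes of 30367 and 10 of 19333 named genes, because Sdf2l1 had 2 probes. The AACO group held 3 hearts of animals given AACO, a Chinese medicine formula, at 0.386 µg/g once daily for 8 weeks, and the control group held 3 hearts of animals given the same amount of double-distilled water on the same schedule. Hearts were taken 24 h after the last administration. The series text places all animals of both groups under TAC and calls them mice, whereas the sample labels name Rattus norvegicus and the arrays carry rat probes, and no heart without TAC is among these 6. The text says that donors differed between experiments, and the p-values rest on the spread among these 6 hearts. The title names chronic heart failure as the setting, and the comparison asks which transcripts differ with the formula.

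Proteins that enter the ER are folded there by chaperones and by enzymes that form disulfide bonds. When unfolded proteins build up, the sensors Ire1 (gene Ern1), Atf6 and Perk (gene Eif2ak3) start the unfolded protein response. Ire1 splices the Xbp1 messenger RNA, and the spliced Xbp1 factor and cleaved Atf6 raise chaperone and degradation genes, while Perk slows translation and raises the factor Atf4. In the heart this response is known from pressure overload and ischaemia.

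A link between several of these genes is visible in the DNA ahead of them. The ER stress response element (ERSE), which Atf6 and Xbp1 bind with NF-Y, is CCAAT, then 9 bases of any kind, then CCACG. The shorter ERSE-II is ATTGG, then 1 base of any kind, then CCACG. RefSeq windows of 300 bases (250 before the annotated start and 50 after it, GRCr8) were searched on both strands. Of the 10 genes, 9 had a window and Manf had none in the table. ERSE stood in 5 of 9 windows, against 22 of 33469 windows of all genes (0.0657%), and ERSE-II stood in 1 of 9, that of Herpud1, against 17 of 33469 (0.0508%). The UPRE letters TGACGTGG stood in 0 of 9, against 0.595% of all windows. The shorter CCACG and CCAAT, which lie inside ERSE, each stood in 9 of 9, against 31.6% and 37.5% of all windows. Dnajb9, Pdia4 and Sdf2l1 held neither ERSE nor ERSE-II. The 10 genes were grouped as ER chaperones and Xbp1 targets, so that the ERSE count is not independent of their choice. The 6 stretches with ERSE or ERSE-II are shown with the motif in capitals, 5′ to 3′ on the strand of the gene. They lie at chr14:84604543-84604591 for Xbp1, chr3:38452766-38453015 for Hspa5, chr19:10614798-10614846 (minus strand) for Herpud1, chr7:23012332-23012484 (minus strand) for Hsp90b1, chr19:40213120-40213168 for Calr and chr7:121789224-121789272 for Creld2.
Xbp1: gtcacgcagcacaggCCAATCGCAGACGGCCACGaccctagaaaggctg
Hspa5: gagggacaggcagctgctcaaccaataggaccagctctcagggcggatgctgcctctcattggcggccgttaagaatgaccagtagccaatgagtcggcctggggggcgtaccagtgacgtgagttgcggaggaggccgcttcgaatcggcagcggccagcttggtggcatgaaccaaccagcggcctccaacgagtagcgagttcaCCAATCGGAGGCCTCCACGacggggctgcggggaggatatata
Herpud1: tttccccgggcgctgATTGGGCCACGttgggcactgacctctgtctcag
Hsp90b1: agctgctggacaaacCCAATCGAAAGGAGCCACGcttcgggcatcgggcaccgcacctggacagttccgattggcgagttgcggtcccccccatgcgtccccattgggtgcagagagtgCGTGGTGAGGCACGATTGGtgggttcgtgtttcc
Calr: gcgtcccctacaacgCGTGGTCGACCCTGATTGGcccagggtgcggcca
Creld2: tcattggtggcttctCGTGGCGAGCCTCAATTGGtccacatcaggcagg
In Xbp1 the ERSE ran from base -65 to base -47 and in Hspa5 from base -43 to base -25, counted from the annotated start. Calr, Creld2 and the second copy of Hsp90b1 hold it on the opposite strand, so that their capitals show its reverse complement. A match of letters is a description of the window and not of binding in these hearts.

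All 11 probes were well above background on all 6 arrays. Each was 60 bases long and was spotted 2 times per array, except the dimmer Sdf2l1 probe, which was spotted once. Values are given as log2 signal minus that of the 75th percentile over all non-control spots on its array, so that 0 is that percentile and each unit up is a doubling. They compare arrays for 1 probe, and the level of one gene cannot be set against that of another. Spots of 1 member probe on 1 array differed by a median of 0.08 (log2), with the widest range of 0.855 for Hsp90b1 on control array 1. Median signal was 211.6, 260.9 and 245.7 on AACO arrays and 203.5, 142.6 and 162.0 on control arrays. The share of spots well above background was 71.79% ± 0.78 on AACO arrays and 67.45% ± 1.37 on control arrays (SD, n = 3 each). The AACO arrays were on 1 slide and scanned on 1 day and the control arrays on another slide and day, so that slide, scan and treatment cannot be told apart.

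None of the 10 genes passed the test between AACO and control hearts. With limma across 17536 genes and Benjamini-Hochberg adjustment, 0 of 10 rose and 0 of 10 fell at an adjusted p under 0.05, where 6.32% of all genes rose and 4.94% fell. At an unadjusted p under 0.05, 0 of 10 were higher and 1 of 10, Creld2, was lower, against 18% and 12.9% of all genes and 30.8% in either direction. The groups did not overlap for 1 of 10 on the higher side (Manf) and 1 of 10 on the lower side (Creld2), against 21.5% and 15.9% of all genes and 37.4% in either direction. The median log2 fold change was 0.15 over the 10 genes and 0.04 over all genes, and 7 of 10 were above 0. The median size of the difference, sign aside, was 0.17 over the 10 genes and 0.24 over all genes.

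**Figure D1:**
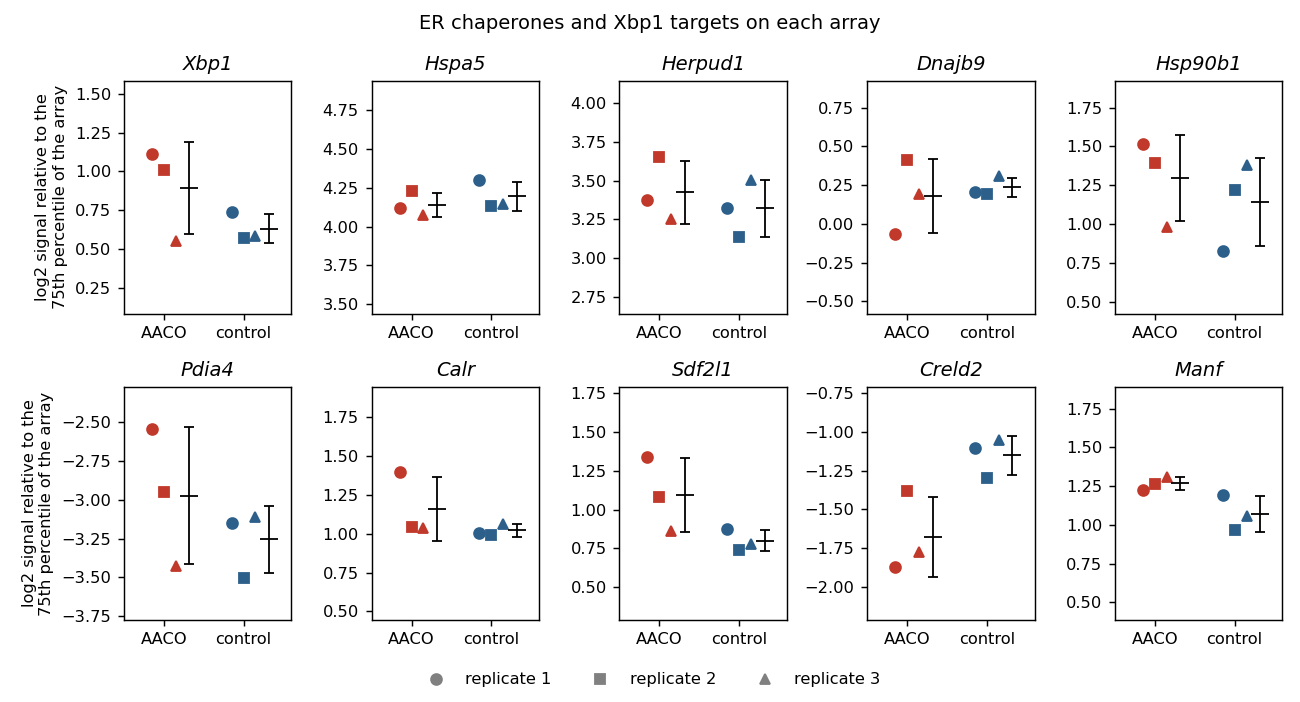
Level of each of the 10 genes on each array, as log2 signal relative to the 75th percentile of the array, with AACO hearts in red and control hearts in blue and the mean and SD of each group (n = 3) beside the points. Marker shapes number the replicates within a group and do not pair hearts across groups. All panels span the same log2 range, and the groups overlap except for Creld2, where AACO lies lower, and Manf, where AACO lies higher.

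Xbp1 encodes the factor that Ire1 activates by splicing. Its probe (chr14:86156913-86156972 in rn4) read 1.11, 1.01 and 0.55 in AACO hearts and 0.74, 0.57 and 0.58 in control hearts. AACO hearts 1 and 2 were above all controls and AACO heart 3 below all of them. The means were 0.89 ± 0.30 in AACO hearts and 0.63 ± 0.09 in control hearts (SD, n = 3 each). The log2 fold change was 0.26 ± 0.16 (SE), with a limma adjusted p of 0.328 and a 95% interval of -0.14 to 0.66. The probe does not tell spliced from unspliced message, so these arrays give no measure of Ire1 activity.

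Hspa5 encodes BiP, the main Hsp70 chaperone of the ER lumen and the usual marker of the response. Its probe (chr3:13787739-13787798) read 4.12, 4.23 and 4.07 in AACO hearts and 4.30, 4.14 and 4.14 in control hearts. The groups overlapped, with the highest value in control heart 1 and the lowest in AACO heart 3. The means were 4.14 ± 0.08 in AACO hearts and 4.19 ± 0.09 in control hearts (SD, n = 3 each). The log2 fold change was -0.05 ± 0.10 (SE), with a limma adjusted p of 0.746 and a 95% interval of -0.30 to 0.19. The 5 genes outside the 10 whose values over the 6 arrays were most like those of Hspa5 were Sdc2 (Pearson r = 0.97), St3gal6 (0.97), Sytl3 (0.95), Nupl1 (0.95) and Hexim1 (0.94). These were picked as the highest among named genes, with symbols that start with LOC or RGD left out. The 6 arrays differ in slide and treatment, so that the r values are descriptions.

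Dnajb9 and Sdf2l1 act with BiP. Dnajb9 encodes ERdj4, a J-domain cochaperone that also holds Ire1 in check, and its probe (chr6:63583604-63583663) read -0.07, 0.41 and 0.19 in AACO hearts and 0.21, 0.20 and 0.31 in control hearts. AACO hearts held both the highest and the lowest value. Dnajb9 had a log2 fold change of -0.06 ± 0.14 (SE), with a limma adjusted p of 0.807.
Sdf2l1 encodes a partner of the J-domain proteins. Its brighter probe (chr11:85880276-85880335) read 1.34, 1.09 and 0.86 in AACO hearts and 0.87, 0.74 and 0.78 in control hearts. The groups overlapped by AACO heart 3 and control heart 1, which differed by little. The means were 1.096 ± 0.24 in AACO hearts and 0.80 ± 0.07 in control hearts (SD, n = 3 each), and the log2 fold change of 0.30 ± 0.14 (SE) was the highest of the 10, with a limma adjusted p of 0.208 and a 95% interval of -0.04 to 0.64. Its dimmer probe (chr11:85879929-85879988) read 0.39, -0.33 and -0.19 in AACO hearts and -0.15, -0.01 and -0.07 in control hearts. That is a difference of 0.04, with AACO hearts at both ends, so that the 2 probes of this gene do not give the same size of difference.

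Hsp90b1, Calr and Pdia4 encode the Hsp90 of the ER (Grp94), the calcium-binding lectin chaperone calreticulin and a protein disulfide isomerase (ERp72). The Hsp90b1 probe (chr7:23334474-23334623) read 1.52, 1.40 and 0.98 in AACO hearts and 0.83, 1.22 and 1.38 in control hearts. The groups overlapped, with AACO heart 3 below controls 2 and 3. Its log2 fold change was 0.15 ± 0.20 (SE), with a limma adjusted p of 0.635.
The Calr probe (chr19:24967507-24967566) read 1.40, 1.04 and 1.03 in AACO hearts and 1.004, 0.993 and 1.07 in control hearts. AACO heart 1 stood above the others, which lay close together. It had a log2 fold change of 0.14 ± 0.13 (SE), with a limma adjusted p of 0.499.
The Pdia4 probe (chr4:75929978-75931486) read -2.54, -2.95 and -3.43 in AACO hearts and -3.15, -3.50 and -3.11 in control hearts. AACO hearts 1 and 2 were above all controls and AACO heart 3 was above control heart 2 only. The 2 Pdia4 spots on AACO array 3 differed by 0.817 (log2), so that the place of AACO heart 3 among the controls is not settled. The log2 fold change was 0.28 ± 0.24 (SE), with a limma adjusted p of 0.462 and the widest 95% interval of the 10, -0.29 to 0.86. The coordinates of the Hsp90b1 and Pdia4 probes span 150 and 1509 bases, more than the 60 bases of each probe, so that each span holds a gap. RefSeq lists pseudogenes of Hsp90b1 and of Pdia4, and whether their transcripts reach these probes was not tested.

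Herpud1 encodes a membrane protein of ER-associated degradation, the route that returns misfolded proteins to the cytosol. Its probe (chr19:11036709-11036768) read 3.37, 3.65 and 3.25 in AACO hearts and 3.32, 3.13 and 3.51 in control hearts. The groups overlapped throughout. Herpud1 had a log2 fold change of 0.10 ± 0.15 (SE), with a limma adjusted p of 0.674.

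Creld2 and Manf encode small proteins of the ER that are also secreted when the ER is stressed, Creld2 with disulfide isomerase activity and Manf as a trophic factor that binds BiP. The Creld2 probe (chr7:127125310-127125369) read -1.87, -1.38 and -1.78 in AACO hearts and -1.10, -1.30 and -1.05 in control hearts. Every AACO heart was below every control heart. The means were -1.68 ± 0.26 in AACO hearts and -1.15 ± 0.13 in control hearts (SD, n = 3 each). The log2 fold change was -0.53 ± 0.15 (SE), a fold of 0.695, with a 95% interval of -0.90 to -0.15. The unadjusted limma p was 0.0134 and the adjusted p 0.0783, so that Creld2 did not pass. The exact two-sided permutation test gave p = 0.1, the smallest that 3 against 3 hearts can give. Adjusted p was 0.0574 with normexp background correction, and 0.0464 (log2 fold change -0.58) where normexp was joined to a percentile taken over probes, the one setting of 20 in which Creld2 passed. That setting was one of a pair of forms of the normexp fit, and both were seen before the planned form was kept.
The Manf probe (chr8:112111548-112111607) read 1.23, 1.26 and 1.31 in AACO hearts and 1.19, 0.96 and 1.06 in control hearts. Every AACO heart was above every control heart, by a narrow margin over control heart 1. The means were 1.27 ± 0.04 in AACO hearts and 1.07 ± 0.12 in control hearts (SD, n = 3 each), and the log2 fold change was 0.20 ± 0.10 (SE), with a limma adjusted p of 0.240 and an exact permutation p of 0.1.

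**Figure D2:**
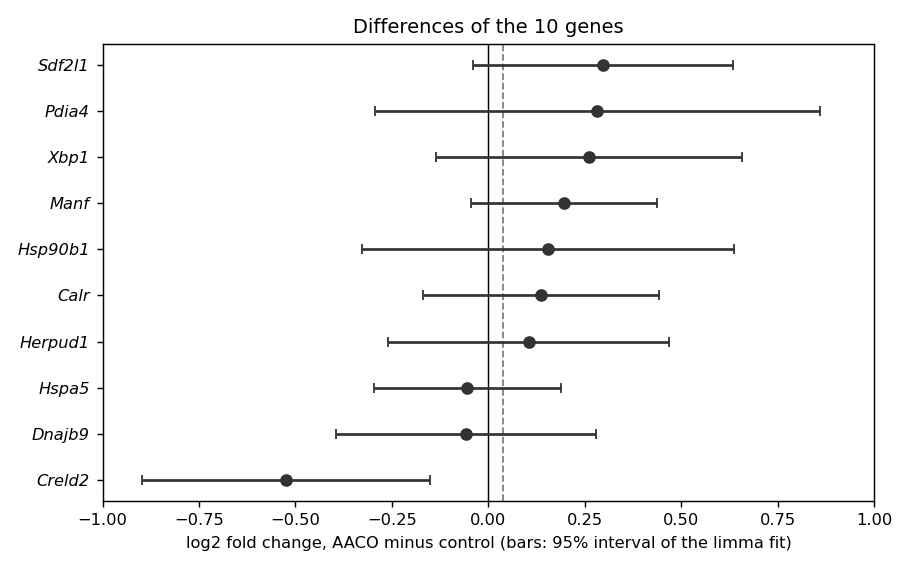
Log2 fold change of each of the 10 genes, AACO minus control, as points with the 95% interval of the limma fit as bars. The solid line marks 0 and the dashed line the median of all genes tested (0.04). The intervals of 9 genes include 0, and that of Creld2 lies below it, although its adjusted p of 0.0783 did not pass.

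The limma intervals rest on the spread within groups and cover no shift between slides or scan days. Creld2, whose interval lay below 0, is set apart here, which leaves 9 genes. Their log2 fold changes lay between -0.06 and 0.30, and no bound lay below -0.40 or above 0.86, a fold of 0.76 to 1.81. These are the outermost bounds of the 9 intervals, and single genes were narrower, such as Hspa5 (-0.30 to 0.19) and Manf (-0.05 to 0.44). An adjusted p that misses the threshold does not show that levels were equal.

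The hearts of the AACO group differed among themselves more than the controls did for most of these genes. The SD was larger in AACO hearts for 7 of 10 members (70.0%), against 50.1% of all genes. The median SD was 0.24 in AACO hearts and 0.11 in control hearts over the members, and 0.16 and 0.15 over all genes. All 10 genes were read on the same hearts, so that they are not separate observations of spread, and the difference in spread was not tested. AACO heart 3 was the lowest of its group for 7 of 10 genes, and control heart 2 for 9 of 10. The share of all genes with such an order was not counted, so it is not shown to be particular to these 10. On the first principal component of the arrays (54.9% of the variance), AACO heart 3 stood at -15.5. AACO hearts 1 and 2 stood at -46.0 and -40.8. The mean over the 10 genes was 0.96, 0.97 and 0.71 in AACO hearts and 0.82, 0.72 and 0.87 in control hearts, so that the groups overlapped. Over the 45 pairs of members, Pearson r across the 6 arrays had a median of 0.33 and ran from -0.77 to 0.94, given as a description since the arrays share slide and treatment.

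Myl7, the atrial light chain, read 4.83, 6.26 and -1.06 in AACO hearts and -2.31, -2.91 and -1.51 in control hearts, and Sln, the atrial inhibitor of the calcium pump, read 1.39, 3.85 and -0.41 in AACO hearts and -1.71, -0.42 and -0.59 in control hearts. Both were high in AACO hearts 1 and 2. Those hearts also read above AACO heart 3 for 7 of the 10 genes (Xbp1, Hspa5, Herpud1, Hsp90b1, Pdia4, Calr and Sdf2l1), whereas AACO heart 1 was the lowest of its group for Dnajb9, Creld2 and Manf. How many of all genes share that order was not counted, and a link to the atrial markers was not tested. Over the 5 of 6 atrial markers tested, the mean level was 2.73 to 5.16 in AACO hearts and 2.16 to 2.88 in control hearts. None of the 5 passed in limma, and the list did not move as a whole. Dkk3 (log2 fold change 0.46), Myl4 (-0.002) and Nppa (-1.01) overlapped between groups. Nppa read 2.80, 5.49 and 5.86 in AACO hearts and 4.95, 5.25 and 6.99 in control hearts, with its lowest value in AACO heart 1. With the level of Myl7 and Sln as a covariate, the log2 fold changes of Xbp1, Herpud1, Hsp90b1 and Pdia4 were -0.07, -0.17, -0.22 and -0.14, with their signs turned. Those of Hspa5, Dnajb9 and Creld2 stayed below 0 (-0.14, -0.16 and -0.75), and those of Calr, Sdf2l1 and Manf stayed above 0 (0.07, 0.11 and 0.25). That limma fit called 0 of 17536 genes, with 2276 at an unadjusted p under 0.05, so that it tells nothing of which members pass.
Of 12 macrophage markers, 9 fell, where 4.94% of all genes fell. The mean level of the 12 was -1.36 to -1.20 in AACO hearts and -0.42 to 0.01 in control hearts. None of 5 plasma cell markers tested of 9 passed in limma. At an unadjusted limma p under 0.05, 2 of the 5 were lower and 0 higher, where 12.9% of all genes were lower and 18% higher. The mean level of the 5 was -4.28 to -3.98 in AACO hearts and -4.00 to -3.84 in control hearts. All 7 cardiomyocyte markers were above background on all arrays, at a mean of 6.03 to 6.14 in AACO hearts and 5.87 to 6.33 in control hearts. The part of these cells in the values of the 10 genes and of the pathway lists was not tested, and in bulk tissue fewer cells of a type and less RNA per cell cannot be told apart.

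Other genes of the ER pathway were taken from 7 lists, and of 140 genes tested, 1 rose and 10 fell in limma at an adjusted p under 0.05, beside 6.32% and 4.94% of all genes. None of 11 sensors and regulators passed in limma. At an unadjusted p under 0.05, 3 of them were higher and 1 lower, where 30.8% of all genes differed in either direction. Creb3, an ER-bound factor, had a log2 fold change of -0.44 ± 0.11 (SE, adjusted p = 0.0503), and Mbtps1, the protease that cleaves Atf6, one of 0.35 ± 0.12 (adjusted p = 0.0992).
Of 27 further chaperones and cochaperones, 1 rose, the prolyl isomerase gene Fkbp11, and none fell. Fkbp11 read -2.13, -2.21 and -2.16 in AACO hearts and -2.53, -2.57 and -2.50 in control hearts. The groups were apart, the log2 fold change was 0.37 ± 0.09 (SE, adjusted p = 0.0472), and it passed in none of the 6 fits that left out 1 heart. Hyou1, an exchange factor for BiP, read 2.18, 1.76 and 1.66 in AACO hearts and 1.30, 1.05 and 1.26 in control hearts. Every AACO heart was higher, and the log2 fold change of 0.66 ± 0.16 (SE) had an adjusted p of 0.0504. Hyou1 passed in 1 of the 6 fits that left out 1 heart, the one without AACO heart 3 (adjusted p = 0.0483), and had adjusted p-values of 0.0781 to 0.124 in the others. In the 20 other settings, which include those 6 fits, Hyou1 passed in 9 and Fkbp11 in 4. Both stayed above 0 in all 20.

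Of 15 disulfide isomerases and oxidases, 1 fell, Ero1a, the oxidase that recharges disulfide isomerase. The counts of this list and of the degradation, translocation and transport lists stand beside 4.94% of all genes that fell. Ero1a read 0.20, 0.22 and 0.42 in AACO hearts and 0.91, 0.95 and 0.90 in control hearts. Its log2 fold change was -0.64 ± 0.10 (SE, limma adjusted p = 0.0170). The groups were far apart beside their spread, and the call was lost without AACO heart 1 (adjusted p = 0.0653), AACO heart 2 (0.0785) or control heart 3 (0.0553). Txndc11 had a log2 fold change of 0.44 ± 0.14 (adjusted p = 0.0945).
Of 24 genes of ER-associated degradation, 1 fell, the ubiquitin-conjugating enzyme gene Ube2j1, with a log2 fold change of -0.43 ± 0.10 (SE, adjusted p = 0.0477), and Edem2 had one of -0.35 ± 0.12 (adjusted p = 0.102). Of 27 genes of translocation and glycosylation, 1 fell, Mlec, the lectin malectin, with -0.66 ± 0.14 (adjusted p = 0.0364), and the translocon gene Sec63 had 0.33 ± 0.11 (adjusted p = 0.102). Of 21 genes of ER to Golgi transport, 2 fell, the COPII coat genes Sec24a with -0.69 ± 0.16 (adjusted p = 0.0413) and Sec31a with -0.49 ± 0.12 (adjusted p = 0.0476), whose second probe had -0.14. With spike-in scaling, no gene of the disulfide, degradation, translocation and transport lists fell. With no scaling between arrays none of them fell either. There 3, 2, 2 and 4 genes of these lists rose, at a median of 0.52 over all genes.

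The Perk and Atf4 list held 5 of the 10 genes that fell, and none of its 15 genes rose, where 4.94% of all genes fell and 6.32% rose. Its median log2 fold change was -0.37, against 0.04 over all genes. The macrophage markers, 9 of 12 of which fell, had a median of -1.14 in the same hearts. The count of the list that fell was 2 with spike-in scaling and 3 with no filter on dim probes. It was 1, 1 and 3 without AACO heart 1, 2 and 3, and 4, 2 and 1 without control heart 1, 2 and 3. With no scaling between arrays, 3 of the list rose and 1 fell, at a median of 0.11 beside 0.52 over all genes. Trib3, a pseudokinase induced by Atf4, read -4.71, -4.61 and -4.76 in AACO hearts and -3.92, -3.90 and -4.00 in control hearts. Its log2 fold change was -0.76 ± 0.09 (SE, limma adjusted p = 0.0103). Every AACO heart was lower by more than the spread of either group, and Trib3 passed in all 6 fits that left out 1 heart. Asns, asparagine synthetase, had a log2 fold change of -0.70 ± 0.12 (adjusted p = 0.0232).
The others that fell, named after their values were seen, were the transcription factor genes Cebpb, Atf4 and Atf5. Their log2 fold changes were -1.003 ± 0.19, -0.51 ± 0.11 and -0.49 ± 0.11 (SE), with limma adjusted p-values of 0.0292, 0.0377 and 0.0412. They passed in 2, 1 and 0 of the 6 fits that left out 1 heart. Of the 15 genes, 4 had a log2 fold change above 0. Of these, 2 lay higher in every AACO heart than in any control heart without passing, where 21.5% of all genes lay so. They were Psat1, of serine synthesis (0.74, limma adjusted p = 0.107), and Chac1, which breaks down glutathione (0.47, adjusted p = 0.0959). In Psat1 the margin was narrow, with AACO heart 3 at -4.823 and control heart 2 at -4.835, and 2 of 3 control arrays were well above background. Lower in every AACO heart were 5 of the 15, against 15.9% of all genes. Ddit3, the factor CHOP, read 3.50, 3.69 and 3.62 in AACO hearts and 3.85, 3.69 and 3.57 in control hearts, with a log2 fold change of -0.10 (adjusted p = 0.584). Of the 11 pathway genes that passed, 1, 1 and 7 still passed without AACO heart 1, 2 and 3, and 5, 4 and 1 without control heart 1, 2 and 3.

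**Figure D3:**
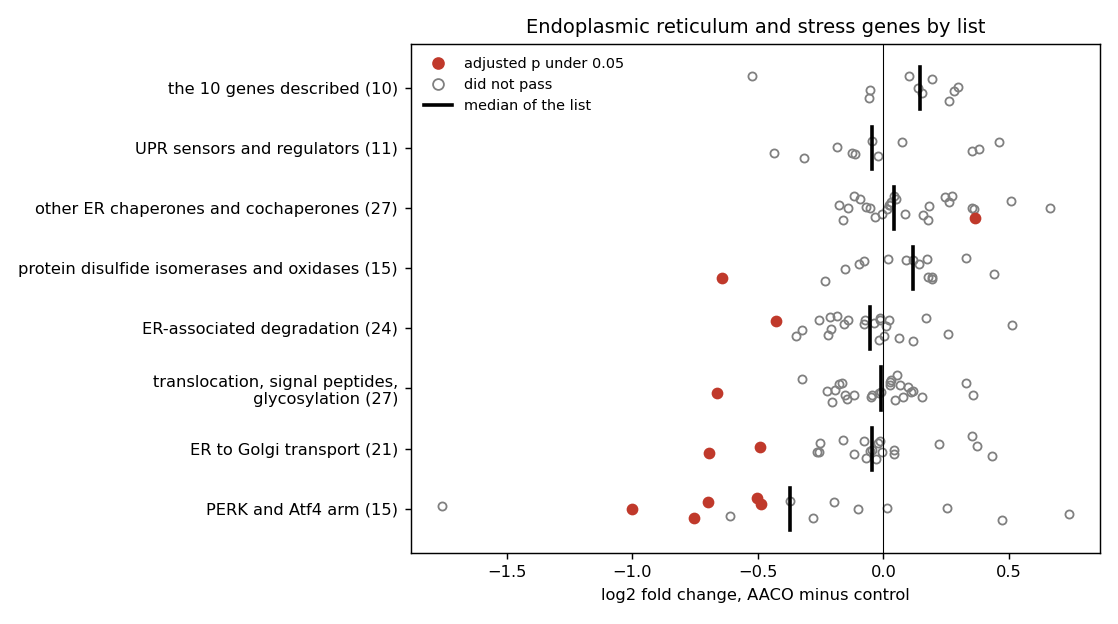
Log2 fold change, AACO minus control, of each gene tested in the 10 described and in 7 lists of ER and stress genes, with the number tested in brackets. Filled red points passed an adjusted p under 0.05, open points did not, and black bars mark the median of each list. None of the 10 passed, and 5 of 15 genes of the Perk and Atf4 list did, all below 0.

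The genes that carry ERSE or ERSE-II in their window but are not among the 10 were read in the same way, a list drawn from sequence after the data had been seen. Of 32 such genes 19 were tested. None rose, where 6.32% of all genes did. Hyou1, described above, had the highest log2 fold change of the 19 (0.66, limma adjusted p = 0.0504). The forkhead gene Foxd4 was the 1 that fell (log2 fold change -0.57, limma adjusted p = 0.0336), and 1 of 19 is near the 4.94% of all genes that fell. The median log2 fold change of the 19 was -0.00, with 9 above 0 and 10 below, from -0.57 to 0.66.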

How the data were processed

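Total RNA from 6 hearts was labelled with Cy3 and hybridised to one-colour Agilent rat arrays. The deposited intensity values are, per the file headers, Feature Extraction 10.7.1.1 processed signals, background-subtracted, with probes placed on rn4. The series matrix, deposited as log2 values that the authors normalized by steps not given in the sources used here, served as an alternative.

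Control spots and outlier spots were left out, log2 processed signal was set relative to the 75th percentile of each array's spots, and spots of a probe were averaged. Probes well above background on at least 3 of 6 arrays were kept, the brightest stood for its gene, and 17536 genes were tested with limma 3.58.1 in R 4.3.3 (lmFit, eBayes, two-sided, Benjamini-Hochberg), after a test on simulated data. Of 30367 probes, 17995 were named through their accession, 5158 by the array files and 7214 not at all.

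Members, pathway lists and marker lists were chosen with earlier results of these data known. All members, and the 2 genes of smallest p in each pathway list, were named. The percentile over spots, in place of over probes, was settled after member values under both had been seen, and so was the form of the normexp fit, which now follows the plan. Promoter sequences are from RefSeq (GRCr8). Exon positions of probes were not analysed here.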

Additional observations from a re-analysis of the deposited data

How the results depend on the processing

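In 20 other settings the count of the 10 genes that rose was 0, except 3 with no scaling between arrays (Xbp1, Pdia4 and Sdf2l1, where the median of all genes was 0.52), and the count that fell was 0, except 1 (Creld2) with normexp and the percentile over probes. That setting and the percentile over probes were added after the data had been seen. Genes called numbered 1975 in the reported fit, 5725 with no scaling, 3111 with array weights, 0 with the Myl7 and Sln covariate (2276 at an unadjusted p under 0.05) and 256 to 2162 in fits without 1 heart: 406 without AACO heart 1, 256 without AACO heart 2, 1209 without control heart 2 and 626 without control heart 3. No call of a member changed without 1 heart. Signs turned with the covariate for Xbp1 (-0.069), Herpud1 (-0.17), Hsp90b1 (-0.22) and Pdia4 (-0.14), with no scaling for Hspa5 (0.43), Dnajb9 (0.43), Creb3 (0.048), Ube2j1 (0.057) and Edem2 (0.14), and for Herpud1 (-0.022) with normexp and the percentile over probes. Without 1 heart, log2 fold changes ran from -0.10 to 0.00058 for Hspa5, -0.0086 to 0.20 for Herpud1, -0.17 to 0.065 for Dnajb9 and -0.0036 to 0.31 for Hsp90b1. The cause was not tested. Rises were 56.1% of genes called, against 33.6% with normexp, 27.8% with normexp and the percentile over probes, 45.7% with the percentile over probes, 35.6% with no filter on dim probes, 69.2% with spike-in scaling and 95.9% with no scaling. Calr, Sdf2l1 and Manf were above 0 and Creld2 below 0 in all 20 settings. No paired analysis was possible because the labels give the groups no shared replicate numbers.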
